A study of Homo sapiens with 8 samples.

Results

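The genes described here are 10 of the NF-kB system: the subunit genes RELB, NFKB1 and NFKB2, the inhibitor gene NFKBIA, and 6 inflammatory genes known as NF-kB targets, VCAM1, ICAM1, IL6, CXCL8, CCL2 and PTGS2. They were chosen by name, with earlier results of these data known. Every probe set whose platform annotation gave exactly 1 symbol, and that symbol was one of the 10, was taken. This gave 10 of 8746 probe sets on the 12 h arrays, 1 per gene, and 15 of 22215 on the 6 h arrays. The genes with 1 symbol numbered 7713 on the 12 h arrays and 11963 on the 6 h arrays.

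The cells were MRC5, a line of human diploid lung fibroblasts. They received 10 µM 8-oxoguanine, the free form of the oxidised guanine base, or the solvent alone (mock), and total RNA was hybridised to 8 single-colour arrays. At 12 h there were 3 treated and 3 mock arrays, 1 per RNA extract and described in the labels as technical replicates, and at 6 h there was 1 array per treatment, of a type with more probe sets. All groups shared the line and the serum-containing medium. The treatment protocol names 6 h for every sample, while the time label gives 12 h for these 6 arrays, and the time label was followed. Whether the extracts are from different cultures is not stated in any label. The p-values and intervals therefore cover the spread among these extracts alone, which may be technical.

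NF-kB is a family of transcription factors that work as dimers. The p50 and p52 subunits, cut from the NFKB1 and NFKB2 proteins, bind DNA but lack the activation domain that RELA, REL and RELB carry. In resting cells the inhibitor IkB-alpha, the NFKBIA product, holds dimers in the cytoplasm until cytokine or microbial signals lead to its phosphorylation and destruction. A slower, non-canonical route turns NFKB2 into p52 and frees RELB dimers. Fibroblasts use the system to make chemokines, interleukins, adhesion molecules and prostaglandins.

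Sites bound by NF-kB carry a family of short sequences known as the kB consensus, which spans 10 bases. For each gene with a match 1 is shown, the strict match nearest to a start where the gene has one and otherwise the nearest of a looser form, so that the letters behind the name NF-kB target can be seen. Windows from 250 bases before to 50 after each start came from RefSeq (GRCh38.p14), and 8 of the 10 genes were in that table of windows, RELB and CCL2 not among them. Both strands were searched for the consensus and for the looser form, which allows any base first and holds every match of the strict one. Positions count back from the start, the base before it being -1. The sequences read 5′ to 3′ along the gene's strand, with the matched bases in capitals.
NFKB1: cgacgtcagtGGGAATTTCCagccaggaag
NFKB2: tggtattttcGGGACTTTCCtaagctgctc
NFKBIA: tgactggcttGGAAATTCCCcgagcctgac
VCAM1: tccccttgaaGGGATTTCCCtccgcctctg
IL6: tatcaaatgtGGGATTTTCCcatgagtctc
ICAM1: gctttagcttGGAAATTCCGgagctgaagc
CXCL8: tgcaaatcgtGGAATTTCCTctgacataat

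The stretch of NFKB1 is chr4:102501300-102501329 (plus strand), with the match from -49 to -40. That of NFKB2 is chr10:102395674-102395703 (plus strand), from -21 to -12 of the third of its listed starts. NFKBIA's is chr14:35404811-35404840 (minus strand), from -81 to -72. VCAM1's is chr1:100719670-100719699 (plus strand), from -62 to -53, where the bases match on both strands. IL6's is chr7:22727117-22727146 (plus strand), from -73 to -64. ICAM1 (chr19:10270924-10270953, plus strand, from -186 to -177) and CXCL8 (chr4:73740468-73740497, plus strand, from -91 to -82) held the looser form only. The strand in brackets is that of the gene. For NFKBIA, ICAM1 and CXCL8 the capitals fit the motif when read on the opposite strand. The strict form occurred in 5 of the 8 genes and in 13.3% of all 27305 genes of the table, and the looser form in 7 of 8 and in 35.7%. The 8 genes had 11 windows and all genes 35116. Since the genes were chosen by name as NF-kB genes, these shares do not measure an excess. PTGS2 had no match in its window. A match describes the letters and is not a measured binding site.

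At 12 h these genes split. VCAM1, RELB, ICAM1 and NFKB1 rose in treated cells, PTGS2 and NFKBIA fell, and NFKB2, IL6 and CCL2 did not pass the test. CXCL8 was too dim to be tested. The test was limma's moderated test on log2 signals, two-sided, with Benjamini-Hochberg adjustment over all 5248 probe sets above a signal limit of 93.9 and a threshold of 0.05. Of all probe sets tested, 13.2% passed, 6.59% higher and 6.65% lower. Of the 9 probe sets tested here, 6 passed, 4 higher and 2 lower. Since the genes were chosen with earlier results of these data known, these counts do not measure an excess over the array. Treated and mock arrays had no overlap at 7 of the 9, 5 higher and 2 lower in treated cells. Of all probe sets tested, 33.9% had none, 17.4% higher and 16.5% lower. The median log2 fold change of the 9 was 0.23, and that of all probe sets tested was 0.01.

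**Figure D1:**
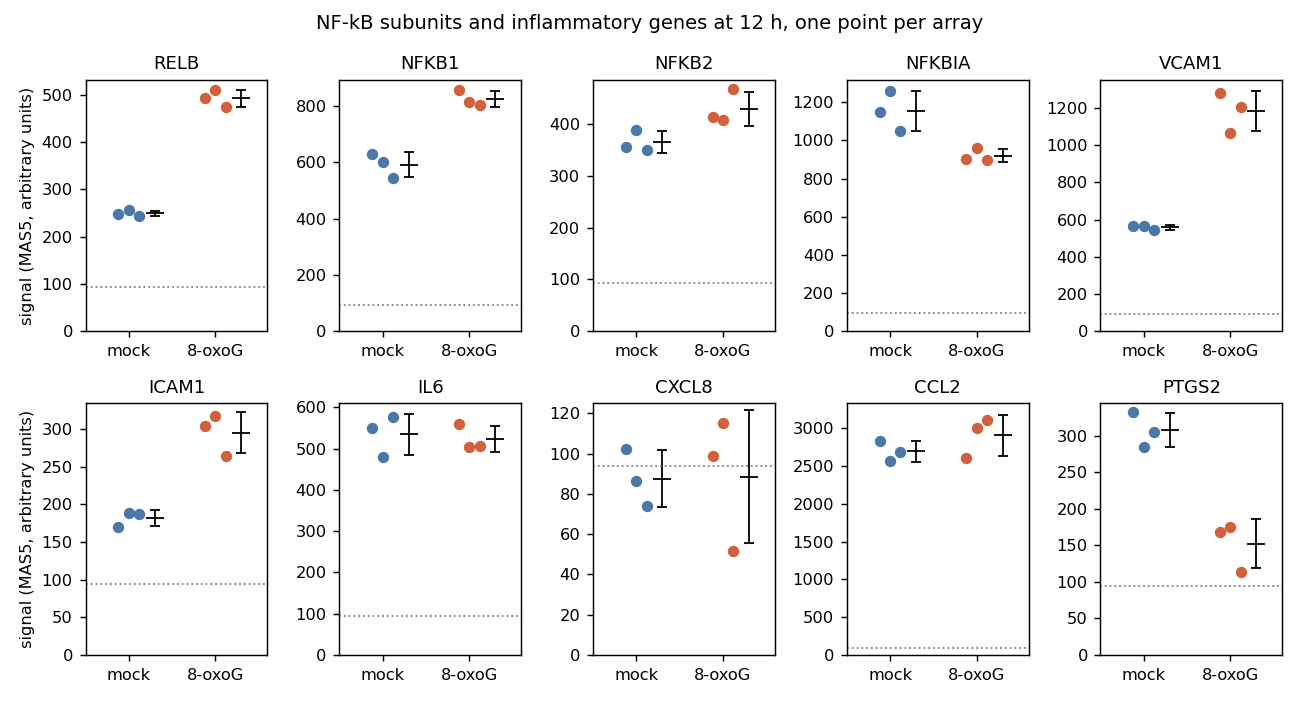
Signal (MAS5, arbitrary units, axis from 0) of the 10 genes on each 12 h array, mock in blue and 8-oxoguanine (8-oxoG) in orange, with the mean and SD of 3 arrays beside the points. The dotted line marks the signal limit of 93.9. RELB and VCAM1 sit at clearly separate levels in the groups, PTGS2 and NFKBIA lie lower in treated cells, and IL6, CCL2 and CXCL8 overlap.

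RELB encodes the activating subunit that pairs mainly with p52 and p50. Its signal (probe set 205205_at) was 248, 256 and 244 on the mock arrays and 492, 511 and 475 on the treated arrays. The groups lay far apart relative to their spread, with means of 249 ± 5.76 and 493 ± 17.96 (SD, n = 3). The log2 fold change was 0.98 (SE 0.10, limma adjusted p = 0.000360), a 1.97-fold rise with a 95% interval of 1.69 to 2.31. It was the 32nd highest fold change of the 5248. RELB passed in all 13 alternative settings and left-out arrays, with adjusted p between 0.000285 and 0.00390.

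NFKB1 encodes the precursor of p50. Its signal was 631, 602 and 543 in mock and 855, 814 and 804 in treated cells (probe set 209239_at). Every treated array was above every mock array. The estimated log2 change was 0.48 (SE 0.09, limma adjusted p = 0.00697) or 1.39-fold (95% interval 1.22 to 1.599). NFKB1 passed in all 13 alternatives (adjusted p 0.00619 to 0.0391).

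NFKB2, the precursor of p52 and partner of RELB, had signals of 355, 389 and 349 in mock and 413, 408 and 467 in treated cells (probe set 207535_s_at). The groups did not overlap, by a narrow margin between the highest mock and the lowest treated array. The log2 fold change of 0.23 (SE 0.11) did not pass (limma adjusted p = 0.178), and its 95% interval ran from -0.0021 to 0.47. It passed in none of its 13 alternatives, with adjusted p from 0.137 to 0.355.

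NFKBIA encodes IkB-alpha, which is itself induced by NF-kB and closes the loop by retaining dimers in the cytoplasm. Its signal was 1151, 1260.05 and 1051 in mock and 904, 958 and 899 in treated cells (probe set 201502_s_at). All treated arrays were below all mock arrays, with means of 1154 ± 105 and 920.2 ± 33.0 (SD, n = 3). The log2 fold change was -0.32 (SE 0.09, limma adjusted p = 0.0360), a fold of 0.799 with a 95% interval of 0.699 to 0.914. This call alone of the 6 failed the test in an alternative that kept the probe set. It was lost without 8-oxoguanine replicate 1 (adjusted p = 0.122), 2 (0.0787) or 3 (0.0781), without mock replicate 1 (0.0854) or 2 (0.0765), with no filter (0.0575, where 6.35% of all 8746 probe sets passed) and with no intensity trend in limma's variance model (0.0864), and it held without mock replicate 3 (0.0336).

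Both adhesion genes rose. VCAM1 encodes the vascular cell adhesion molecule, an immunoglobulin-family ligand of leukocyte integrins that fibroblasts can also display. Its signal (probe set 203868_s_at) was 566, 567 and 543 in mock and 1279, 1065 and 1205 in treated cells. The mock arrays were close to one another, and the lowest treated array lay well above them. The log2 fold change was 1.08 (SE 0.09, limma adjusted p = 0.000110), or 2.11-fold (95% interval 1.84 to 2.43), the 22nd highest of the 5248. VCAM1 passed in all 13 alternatives (adjusted p 0.000102 to 0.00236).

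ICAM1 encodes the intercellular adhesion molecule that binds integrins of the beta-2 family. The signal of its probe set 202638_s_at was 170.2, 188 and 188 in mock and 305, 317 and 265 in treated cells. Every treated array was again above every mock array. The estimate on the log2 scale was 0.70 (SE 0.13, limma adjusted p = 0.00877), or 1.62-fold (95% interval 1.32 to 2.00). ICAM1 passed in all 12 alternatives that kept it (adjusted p 0.00774 to 0.0471). The stricter filter left it out.

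PTGS2 encodes cyclooxygenase-2, the inducible enzyme of prostaglandin synthesis. Its signal (probe set 204748_at) was 333, 285 and 306 in mock and 168, 175 and 114 in treated cells. All treated arrays were lower, the third most of all. On the log2 scale PTGS2 changed by -1.04 (SE 0.18, limma adjusted p = 0.00593), a 2.05-fold fall, with a 95% interval from -1.45 to -0.63 on the log2 scale. It was the 25th lowest fold change of the 5248, and passed in all 12 alternatives that kept it (adjusted p 0.00506 to 0.0248). The stricter filter left it out too.

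The secreted cytokines gave no call. IL6, the gene of interleukin-6, had signals of 550, 478 and 576 in mock and 561, 503 and 507 in treated cells (probe set 205207_at). The groups overlapped, and the log2 fold change was -0.03 (SE 0.10, limma adjusted p = 0.900; 95% interval -0.26 to 0.20). Its sign turned without 8-oxoguanine replicate 2 (0.000588) and without mock replicate 3 (0.03).

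CCL2 encodes the monocyte chemoattractant MCP-1. Its signal was 2833, 2560.4 and 2680 in mock and 2603, 3000 and 3113 in treated cells (probe set 216598_s_at), and the lowest treated array fell among the mock arrays. The log2 fold change was 0.11 (SE 0.08, limma adjusted p = 0.445; 95% interval -0.08 to 0.29), so a rise of the size seen for RELB or VCAM1 lay outside the intervals of both IL6 and CCL2.

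CXCL8, the gene of the neutrophil chemokine interleukin-8, had signals of 102, 86.4 and 73.8 in mock and 98.6, 115 and 51.5 in treated cells (probe set 211506_s_at). These straddle the signal limit, and the groups overlapped. Fitted with no filter, its log2 fold change was -0.05 (SE 0.34, limma adjusted p = 0.963). The interval of -0.83 to 0.73 also holds a rise of the size measured for ICAM1.

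**Figure D2:**
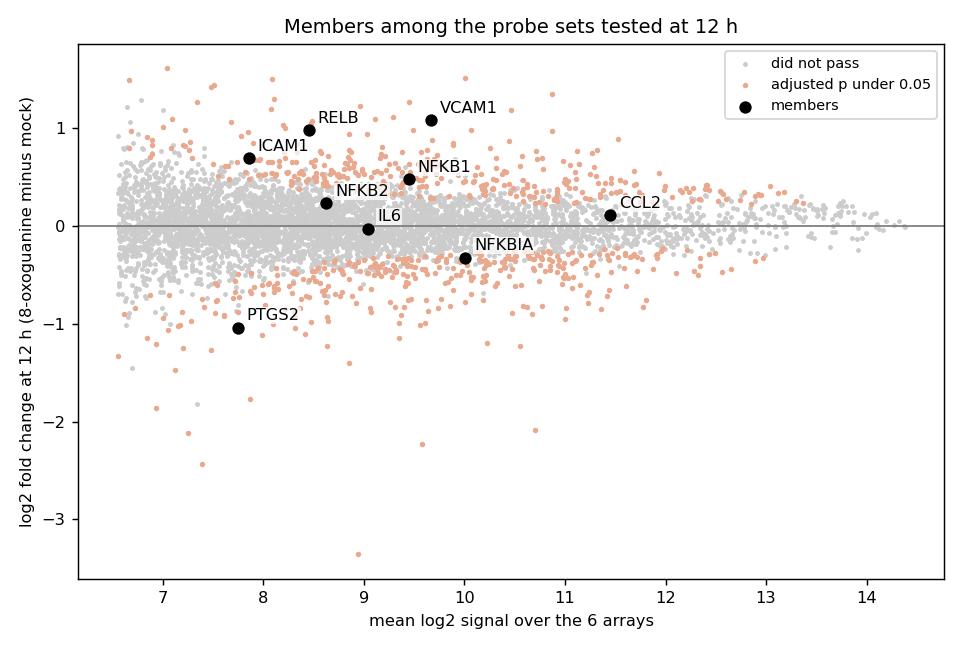
Log2 fold change at 12 h (8-oxoguanine minus mock) against the mean log2 signal over the 6 arrays for the 5248 probe sets tested, those with limma adjusted p under 0.05 in light orange, and the 9 genes tested here in black. VCAM1 and RELB lie near the upper edge and PTGS2 near the lower edge, while IL6 and CCL2 lie near 0.

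The probe sets whose log2 profile over the 6 arrays lay nearest to each called gene were found as a description. The measure was the root mean square difference between profiles, each centred on its own mean. For RELB these were PSAT1, a serine synthesis enzyme (0.0415), and ATF3, a stress-induced transcription factor (0.0677), and VCAM1 had the same pair (0.0838 and 0.0830). PTGS2 was nearest to CCNA2, a cell cycle cyclin (0.0439), and BIRC5, or survivin (0.100). NFKBIA was nearest to CD248 (0.0182) and BID (0.0191), NFKB1 to PTPN12 (0.0402) and MAN2C1 (0.0453), and ICAM1 to ATF6B (0.0785) and SLC1A4 (0.0807). The profiles are of 6 arrays in 2 groups, and the near probe sets had log2 fold changes close to those of the genes they were matched to, such as 0.97 for PSAT1, 1.06 for ATF3, -1.12 for CCNA2 and -0.93 for BIRC5.

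The rest of the pathway was read from 7 lists with 99 genes, of which 85 were on the 12 h arrays and 48 were above the signal limit, each by its brightest probe set. Of the 48, 8 rose, 6 fell and 34 did not pass, against 13.2% of all probe sets called, and their median log2 fold change was -0.01. These lists too were chosen with earlier results of these data known, so the counts do not measure an excess. The 14 calls fell to 8 without 8-oxoguanine replicate 1 and to 8 without 8-oxoguanine replicate 2.

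**Figure D3:**
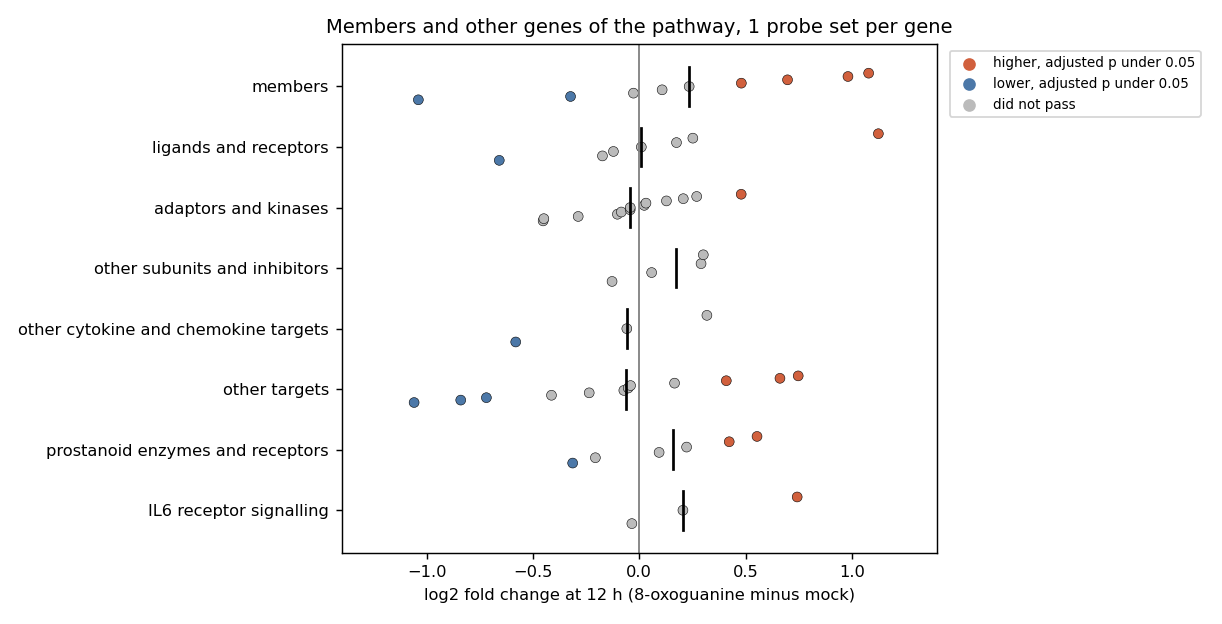
Log2 fold change at 12 h (8-oxoguanine minus mock) of the genes of this report ("members") and of the 7 pathway lists, 1 point per gene above the signal limit. Red points were higher and blue points lower at limma adjusted p under 0.05, grey points did not pass, and the black bar is the median of the row. The row of other targets holds 3 red and 3 blue points, and that of cytokine and chemokine targets 1 blue point and no red one.

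Upstream, 7 of 15 ligands and receptors were above the limit, and 1 rose and 1 fell (median 0.01). IL1R1, the signalling receptor of interleukin-1, rose from 274, 324 and 286 in mock to 619, 664 and 639 in treated cells. Its groups were far apart, and the change was 1.12 on the log2 scale (SE 0.10, limma adjusted p = 0.000204), with a call in all 13 alternatives. TNFRSF12A, the receptor of the cytokine TWEAK, fell from 3906, 2878 and 3777 to 2695, 1723 and 2327, or by -0.66 on the log2 scale (SE 0.16, limma adjusted p = 0.0266). That call was lost without 8-oxoguanine replicate 2 (0.0735) or 3 (0.0550), without mock replicate 1 (0.0819) or 3 (0.0819), with no filter (0.0587) and with no intensity trend (0.0836). The cytokine genes TNF, IL1A, IL1B, LTA and LTB were all under the limit.

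Of 20 adaptors and kinases, 13 were above the limit and 1 rose (median -0.04). TRAF3, an adaptor that restrains the non-canonical route, rose by 0.48 (SE 0.13, limma adjusted p = 0.0418), from a mean of 277 ± 35.1 to 386 ± 35.6 (SD, n = 3). The call was lost with no filter (0.0738), with no intensity trend (0.0615), without any 1 treated array (0.0581 to 0.147) and without mock replicate 1 (0.0819) or 3 (0.124). MAP3K14, the gene of the NIK kinase, did not pass, at -0.45 on the log2 scale (SE 0.15, limma adjusted p = 0.0695), and passed with no intensity trend (adjusted p = 0.0350). MAP3K14, RELA, IL6ST and KRT19 were named after their values were seen.

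None of the 4 other subunits and inhibitors above the limit passed (median 0.17). NFKBIE, another IkB protein, stood at 0.30 on the log2 scale (SE 0.15, limma adjusted p = 0.225), and TNFAIP3, the A20 enzyme that damps the pathway, had 0.29 (SE 0.12, adjusted p = 0.151). RELA, the main activating subunit, had a mean signal of 1453 ± 55.2 (SD, n = 3) on mock arrays and 1512 ± 29.2 on treated ones, which is 0.06 on the log2 scale (SE 0.07, adjusted p = 0.632).

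Among other cytokine and chemokine targets, 13 of the 16 on the array were under the signal limit. Of the 3 above it LIF, leukaemia inhibitory factor, fell from 1537, 1543 and 1611 to 1049, 1059.8 and 1027. This was a tight separation, of -0.58 on the log2 scale (SE 0.07, limma adjusted p = 0.000762) that passed in all 13 alternatives.

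Other targets moved both ways: of 12 above the limit 3 rose and 3 fell (median -0.06). NAMPT, a rate-limiting enzyme of NAD salvage, rose by 0.75 (SE 0.11, limma adjusted p = 0.00205). CFLAR, an inhibitor of caspase-8, rose by 0.66 (SE 0.15, adjusted p = 0.0208), and PTX3, a secreted pentraxin, by 0.41 (SE 0.08, adjusted p = 0.0107). CFLAR lost its call without 8-oxoguanine replicate 1 (0.0618), 2 (0.0815) or 3 (0.0522) or mock replicate 3 (0.0692), and PTX3 without 8-oxoguanine replicate 1 (0.0517). GADD45B, a stress-induced signalling protein, fell by 1.06 (SE 0.19, limma adjusted p = 0.00630), to a treated mean of 92.5 that was itself under the signal limit. IER3, an early response gene, fell by 0.84 (SE 0.10, adjusted p = 0.000762), and PLAU, the urokinase gene, by 0.72 (SE 0.08, adjusted p = 0.000467). NAMPT, GADD45B, IER3 and PLAU passed in every alternative that kept them.

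The genes in the list of prostanoid enzymes and receptors, which also holds leukotriene genes, did not all follow PTGS2. Of 6 above the limit 2 rose and 1 fell (median 0.16). PTGS1, the constitutive cyclooxygenase, fell by 0.31 (SE 0.07, limma adjusted p = 0.0199), and PTGIS, prostacyclin synthase, rose by 0.55 (SE 0.12, adjusted p = 0.0137). LTA4H, which makes leukotriene B4, rose by 0.42 (SE 0.10, adjusted p = 0.0218). PTGS1 lost its call without 8-oxoguanine replicate 1 (0.0523) or 2 (0.0917), without mock replicate 1 (0.0608) and with no intensity trend (0.0736). PTGIS lost it without 8-oxoguanine replicate 1 (0.0598) or 2 (0.0563), and LTA4H without 8-oxoguanine replicate 1 (0.0836) or 2 (0.0851), with no intensity trend (0.0696) and with median centring (0.0506).

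In the list of interleukin-6 signalling, 1 of 3 genes above the limit rose (median 0.21). STAT3, the transcription factor downstream of the interleukin-6 receptor, went from 2056, 1902 and 1784 in mock to 3219, 2995 and 3387 in treated cells. The groups were well apart, by 0.74 on the log2 scale (SE 0.08, limma adjusted p = 0.000467) that passed in all 13 alternatives. IL6ST, the shared signalling receptor, had -0.03 and did not pass (SE 0.09, adjusted p = 0.852).

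The label of the cells was set against marker lists. All 9 fibroblast markers on the 12 h array were above the limit, with summed signals, made up mostly of COL1A1, COL1A2 and VIM, of 62423 to 75867 on mock and 61470.3 to 75523 on treated arrays. Of 6 endothelial markers PECAM1 alone was above it, and the list summed to 238 to 313 in mock and 215 to 264 in treated cells, while of 5 leukocyte markers CD3E alone was (174 to 360 and 307 to 363). Of 6 epithelial markers 3 were above it, and their list summed to 4010.3 to 4263 in mock and 4155 to 4449 in treated cells. Most of that sum was KRT18, with a mean of 3639 ± 128 (SD, n = 3) on mock and 3943 ± 143 on treated arrays. EPCAM and CDH1 of epithelium, VWF, CDH5, KDR and SELE of endothelium, and PTPRC and CD14 of leukocytes were under the limit, with no group mean above 30.9. The other members of these lists were brighter, with KRT5, TEK and ITGB2 also under the limit. CD79A, under the limit over all arrays, averaged 61.9 ± 40.6 (SD, n = 3) on mock arrays and 115 ± 29.7 on treated ones, and CD3E 112 ± 47.9 and 123 ± 35.1. Of the epithelial keratins KRT19 fell by 1.27 (SE 0.17, limma adjusted p = 0.00145), while KRT8 (0.49, adjusted p = 0.117) and KRT18 (0.12, adjusted p = 0.284) did not pass. Within the fibroblast list LUM rose by 1.07 (SE 0.17, limma adjusted p = 0.00340) and PDGFRB by 0.30 (SE 0.08, adjusted p = 0.0446), S100A4 fell by 0.58 (SE 0.09, adjusted p = 0.00302), and the other 6 did not pass. The part of other cell types in the results was not tested. In these bulk RNA samples, fewer cells expressing a gene and less RNA per cell cannot be told apart.

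At 6 h, with 1 array per treatment, there was no test and no replicate check. No probe set of the 10 genes differed by 2-fold or more between the arrays, where 1.34% of the 11108 probe sets above the 6 h signal limit of 148 did, 0.378% higher and 0.963% lower in the treated array. Of the 15 probe sets 10 were above that limit, and 5 of these 10 had a ratio above 0, where 45.6% of all probe sets above the limit did. Median centring of the arrays added 0.12 to every log2 ratio, and the count was then 7, as it was with quantile normalization. The median of all probe sets above the limit moved too, from -0.03 to 0.08 with median centring and to 0.02 with quantile normalization. Their share above 0 was not computed for these scalings.

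CCL2 had the highest ratio of the 10 probe sets, at 690 in the mock sample against 1073 in the treated one (1.55-fold). Its log2 ratio of 0.64 was above those of 97.3% of probe sets kept at 6 h, and quantile normalization gave 0.72, median centring 0.75. ICAM1 had 131 and 180 at probe set 202637_s_at (log2 ratio 0.46), but its 2 dimmer probe sets, under the limit, had 0.21 and -0.05. NFKBIA had 604 and 706 (0.22), IL6 255 and 285 (0.16), and NFKB1 571 and 615 (0.11). These 3 stayed above 0 under each scaling.

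RELB had 205 on the mock and 198 on the treated array at 6 h, and NFKB2 360 and 352, with log2 ratios of -0.05 and -0.03 that became 0.07 each with quantile normalization. Both lay close to the middle of all probe sets kept. The other NFKB2 probe sets, under the limit, had -0.44 and 0.36. VCAM1 had 255 and 210 (-0.28), PTGS2 366 and 303 (-0.27) and the brighter CXCL8 probe set, 202859_x_at, 225 and 195 (-0.21), all below 0 under each scaling. The dimmer CXCL8 probe set had 84.2 and 50.3 (-0.74). Of the 47 pathway genes above the limit at 6 h none was 2-fold apart, and 20 had a ratio above 0, a share close to that of the whole array. Signals at 6 h and 12 h come from different array types and were not compared.

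**Figure D4:**
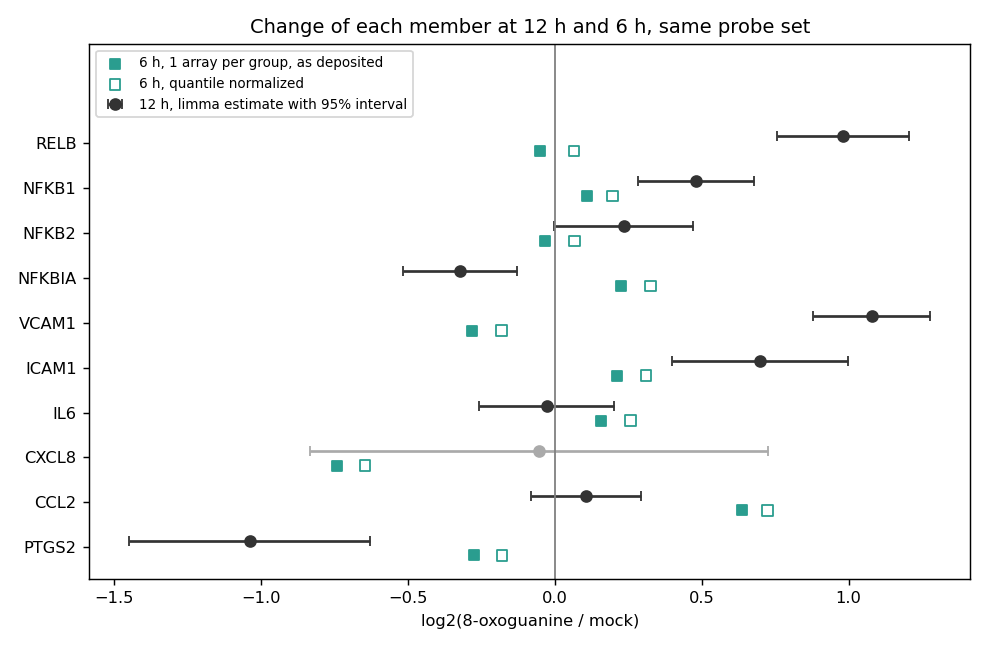
Log2 ratio of 8-oxoguanine to mock for each gene, by the probe set that both array types carry. Black circles are the 12 h estimates with 95% intervals (CXCL8, grey, from the fit with no filter), filled squares the 6 h ratio of 1 array pair as deposited and open squares the same after quantile normalization. PTGS2 lies below 0 at both times and ICAM1 and NFKB1 above 0 at both, while VCAM1 and NFKBIA lie on opposite sides of 0 at the 2 times. The probe sets of ICAM1 and CXCL8 shown were under the 6 h signal limit.

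Of the 6 genes called at 12 h, NFKB1 (0.11), ICAM1 (0.21, same probe set) and PTGS2 (-0.27) had a 6 h ratio on the side of their 12 h change. That ICAM1 probe set was under the 6 h signal limit. VCAM1 and NFKBIA had it on the other side, and the side of RELB turned with the scaling. No test was made between 6 h and 12 h, since time, array type and number of arrays differed together.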

How the data were processed

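Biotin-labelled RNA of MRC5 cells was read on 8 short-oligonucleotide arrays. The deposited values are linear intensity values, 1 for each probe set of each array, made by the authors with MAS5 per the submitters' processing notes. Its version is not given in the sources used here, nor are its settings. The array means without its lowest and highest 2% of values were 500.1 to 500.5, so the arrays share a scale. Array medians were 143 to 165. The number of arrays limits the precision, and no detection calls were used.

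Log2 intensities were used without further scaling. Control probe sets (47 at 12 h, 62 at 6 h) and probe sets with a mean log2 value under the 40th percentile at 12 h (signal 93.9, 5248 of 8746 kept) or the 50th at 6 h (148, 11108 kept) were left out. The 12 h comparison used limma 3.58.1 (R 4.3.3), with lmFit and trended eBayes. Tests were two-sided and adjusted by Benjamini-Hochberg over all probe sets kept. An adjusted p is from this fit unless its sentence or paragraph names another setting, a left-out array or the fit with no filter. Intervals are 95%. The step was tested on simulated data. At 6 h ratios only were computed. Gene symbols came from the platform annotation, and all 10 matched RefSeq's table of gene names (GRCh38.p14), which is not the table of promoter windows.

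The 10 genes and the pathway and marker lists were chosen with earlier results of these data known. Text names the 10 genes, up to 4 called genes per pathway list with the largest changes (otherwise up to 2), and the 2 nearest profiles of each called gene; CFLAR and PTX3 complete a count, and the genes of the closing observations were chosen after their values were seen. Alternatives were median centring, quantile normalization, other filters, adding the 20th percentile of signals ahead of log2, eBayes without trend, a replicate block, averaging probe sets of one gene, and omitting each 12 h array.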

Additional observations from a re-analysis of the deposited data

Results flagged for a closer look

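Counted here were the 7 of the 10 genes without overlap at 12 h, and the 14 called pathway genes, which also had none. Genes named only as markers or near profiles were left out. So were pathway genes without overlap that were not called, such as TRADD, MAP3K14, TNFAIP2 and PTGER2. No share of the whole array that turned between the times is given. For 13 of the probe sets counted, the single pair of arrays at 6 h went the other way from 12 h. The difference was not tested, and a single array pair gives no spread. Among the 10 genes the 6 h log2 ratios were -0.0486 for RELB, -0.0319 for NFKB2, 0.22 for NFKBIA and -0.28 for VCAM1, against 12 h fold changes of 0.98, 0.23, -0.32 and 1.08. Among the pathway genes that fell at 12 h the 6 h ratios were 0.24 for TNFRSF12A, 0.30 for IER3, 0.36 for PLAU and 0.30 for PTGS1. Among those that rose they were -0.31 for TRAF3, -0.16 for NAMPT, -0.20 for LTA4H, -0.15 for PTX3 and -0.0189 for CFLAR, each by the probe set used at 12 h. The sign at 6 h turned with quantile normalization for 5 of the 13, RELB (0.07), NFKB2 (0.07), TNFRSF12A (-0.03), PTGS1 (-0.08) and CFLAR (0.08), and for RELB, NFKB2 and CFLAR also with median centring (0.07, 0.08 and 0.10).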

How the results depend on the processing

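Among the 10 genes, VCAM1, RELB, NFKB1, ICAM1 and PTGS2 kept their direction and call in every alternative that kept them. NFKBIA kept its direction and lost its call with no filter and with no intensity trend (-0.32 each, adjusted p = 0.0575 and 0.0864), and its log2 fold change was -0.39 to -0.26 over the left-out arrays. IL6 ranged from -0.11 to 0.0282 over them, with the sign turned without 8-oxoguanine replicate 2 (0.000588) and mock replicate 3 (0.0282). The 6 calls among these genes were 4 to 6 in the alternatives. The 695 calls of the whole array were 371 to 649 with 1 array left out (371 without 8-oxoguanine replicate 1, 386 without 8-oxoguanine replicate 2 and 451 without mock replicate 3), and the 14 pathway calls 8 to 14. The labels number the extracts 1 to 3 in both groups, but same-numbered arrays did not deviate together (r = 0.08, -0.15 and -0.05 over probe sets), so they were not taken as pairs. With the replicate number as a block 513 probe sets passed, the same 6 calls were made among the 10 genes, and TRAF3 lost its call (0.0835). At 6 h the 149 probe sets 2-fold or more apart (42 higher, 107 lower) became 83 with quantile normalization (15 and 68), 3167 with no filter and 67 with the stricter filter, and median centring turned the split to 88 and 60. With the constant added, the dim probe set 211524_at of NFKB2 had 0.13 and 211506_s_at of CXCL8 had -0.58; the other 6 h ratios of the 10 genes moved by less than the median SD between 12 h replicates (0.15). Signals near the limit, CXCL8 above all, limit what can be seen.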

Other observations

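All CXCL genes of the pathway lists on the 12 h array were under the signal limit, so the main test left them out. In the fit with no filter CXCL2, a neutrophil chemokine, had signals of 5.93, 14.9 and 31.1 in mock and 89.5, 103 and 95.4 in treated cells. The groups did not overlap, and the log2 fold change was 2.77 (SE 0.58, limma adjusted p = 0.0263). In that fit 6.35% of all 8746 probe sets passed. The mock signals were far under the limit of 93.9, and the treated mean of 95.9 was close to it. Signals this dim leave both the change and its size uncertain. Whether the CXCL2 probe set also reads RNA of other CXCL genes was not tested. At 6 h the CXCL2 signal was 47.1 on the mock and 60.3 on the treated array. CXCL1 (48.2 ± 9.25 in mock, 75.02 ± 28.99 in treated cells; SD, n = 3) and CXCL3 (24.98 ± 9.28 and 35.8 ± 6.40) did not pass in that fit, with limma adjusted p = 0.514 and 0.545. GCH1, the first enzyme of tetrahydrobiopterin synthesis, had 59.7 ± 8.51 and 105 ± 8.80, with adjusted p = 0.101.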
